A study of Mus musculus with 8 samples.

Results

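The 10 genes described here mark dendritic cells and Langerhans cells, the antigen-presenting cells of skin: Cd207, Epcam, Itgax, Zbtb46, Flt3, Batf3, Irf8, Clec9a, Cd209a and Clec10a. They were chosen by name, and all 10 were found among the 41388 gene identifiers of each count table. Their levels were compared between 4 libraries of MC903-treated ear skin and 4 libraries of vehicle-treated ear skin, all from adult wild-type C57Bl/6 mice. MC903 is calcipotriol, a vitamin D analog, and 1 nmol was put on the ear each day for 12 days. The vehicle was ethanol. The labels state neither sex nor exact age. The treatment is used to make itchy, atopic dermatitis-like skin in mice, and each library held RNA of the whole ear.

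Langerhans cells live in the epidermis, where they carry the lectin langerin, and they leave for lymph nodes when activated. The dermis holds conventional dendritic cells, which grow under Flt3 signalling and fall into type 1 cells, specialised in presenting antigen to CD8 T cells, and type 2 cells, which prime helper T cells. Several of the 10 genes are shared with other cells. Epcam is also made by epithelium, Itgax and Irf8 by some macrophages, and Irf8 by B cells. In whole tissue, more cells of a type and more RNA per cell cannot be told apart.

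Batf3, one of the 10 genes, encodes a protein of the AP-1 family, which binds TGANTCA on DNA. The 250 bases before the start site were therefore searched for TGANTCA on both strands (the motif reads alike on both, so a match is counted once), using RefSeq promoters of build GRCm38.p6. The table held promoters for 9 of the 10 genes, 10 promoters in all, and 3 of these 10 contained TGANTCA. Of all 32851 promoters, 6.75% contained it. Those of Itgax and Cd207 are shown because they hold this AP-1 motif, which capitals mark. Binding of Batf3 or any other protein to it was not tested. They lie at chr7:128129300-128129549 on the plus strand for Itgax and chr6:83677858-83678107 on the minus strand for Cd207. Both are printed 5′ to 3′ in the direction of the gene. The third, of Zbtb46, lies inside the span of the gene in the deposited tables, before an internal RefSeq start, and is not shown.
Itgax: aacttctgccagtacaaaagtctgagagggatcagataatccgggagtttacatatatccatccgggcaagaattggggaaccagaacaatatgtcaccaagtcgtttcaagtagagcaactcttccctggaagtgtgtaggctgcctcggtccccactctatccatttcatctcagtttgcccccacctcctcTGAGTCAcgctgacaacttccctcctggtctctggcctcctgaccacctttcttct
Cd207: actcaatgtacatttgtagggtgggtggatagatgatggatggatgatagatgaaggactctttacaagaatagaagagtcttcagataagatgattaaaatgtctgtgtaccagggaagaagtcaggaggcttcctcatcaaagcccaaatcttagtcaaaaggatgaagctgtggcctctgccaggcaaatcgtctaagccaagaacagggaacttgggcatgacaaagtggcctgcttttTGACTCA
With the base before the start site counted as -1, the motif lay at -56 to -50 for Itgax and at -7 to -1 for Cd207. The PU.1 motif GAGGAAGT, the Runx motif TGTGGT, the interferon response motif, the ETS-IRF composite motif and the vitamin D response element were in none of the 10 promoters on either strand. They were in 2.44%, 14.0%, 2.98%, 2.30% and 0.0396% of all promoters. These matches describe letters only.

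In mm10 coordinates of the deposited tables, Epcam (ENSMUSG00000045394) on chromosome 17 from 87635979 to 87651106 and Itgax (ENSMUSG00000030789) on chromosome 7 from 128129547 to 128150656 lie on the plus strand, as do Batf3 (ENSMUSG00000026630) on chromosome 1 from 191098414 to 191108943, Irf8 (ENSMUSG00000041515) on chromosome 8 from 120736358 to 120756694, Clec9a (ENSMUSG00000046080) on chromosome 6 from 129408862 to 129424764 and Clec10a (ENSMUSG00000000318) on chromosome 11 from 70156197 to 70170834. On the minus strand lie Zbtb46 (ENSMUSG00000027583) on chromosome 2 from 181387762 to 181459426, Flt3 (ENSMUSG00000042817) on chromosome 5 from 147330741 to 147400489 and Cd209a (ENSMUSG00000031494) on chromosome 8 from 3743395 to 3748984, as does Cd207. The counts cover all annotated exons of a gene together.

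Library totals were 12310466 to 15575518 counts in the MC903 group and 14223908 to 16837221 in the vehicle group. Vehicle replicate 2 stood apart, with 24.5% of its counts in the salivary gene Bpifa2. The highest share of any gene was 2.93% in the other libraries. All 13 listed skin, connective tissue, cartilage, muscle, nerve and pigment cell markers were detected and tested. Levels are given as TMM-adjusted CPM, counts scaled to library size, where TMM is a scaling that sets the bulk of genes level between libraries. Changes were tested with edgeR's quasi-likelihood test and Benjamini-Hochberg adjustment over 16105 genes, at a threshold of 0.05. Of the 13 tissue markers, 4 were higher and 4 lower (2 and 2 without vehicle replicate 2), and the cartilage proteoglycan gene Acan fell (log2 fold change -1.37 ± 0.14).

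After MC903, 5 of the 10 genes rose, and the remaining 5 did not pass. All 10 passed the filter on low counts. Among all genes tested, 41.5% passed, 21.3% higher and 20.2% lower. The 5 that rose were Irf8, Clec10a, Itgax, Batf3 and Cd209a. Langerin, Cd207, was at a lower level but did not pass. The median log2 fold change was 0.59 over the 10 genes and -0.03 over all genes tested. The groups did not overlap for the same 5 genes, all higher. Among all genes tested, 38.7% did not overlap, 19.8% higher and 18.9% lower. Without vehicle replicate 2, the count was also 5 higher and 0 lower.

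**Figure D1:**
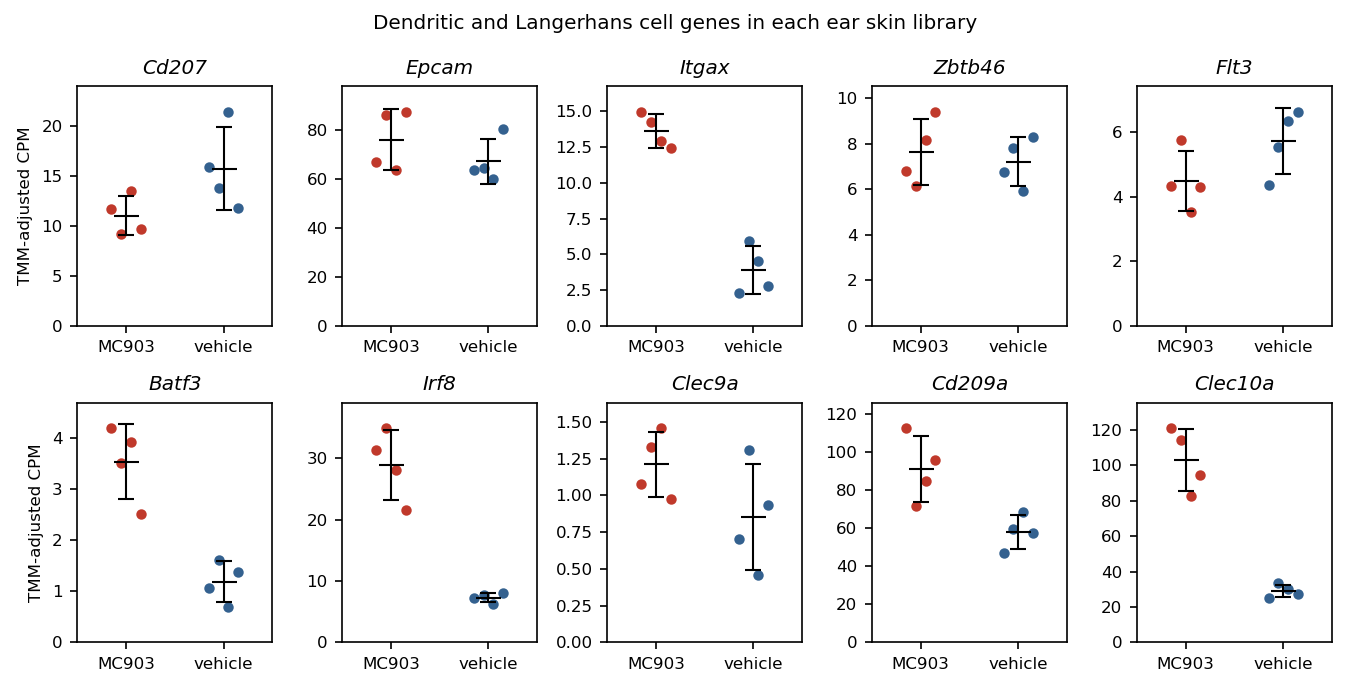
TMM-adjusted CPM (vertical axes, each from 0) of each gene in the 4 MC903 libraries (left, red) and the 4 vehicle libraries (right, blue), with the mean and SD in black. The groups do not overlap for Itgax, Batf3, Irf8, Cd209a and Clec10a, and overlap for the other 5 genes.

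Cd207 encodes langerin, the lectin that forms Birbeck granules in Langerhans cells, and some dermal type 1 dendritic cells carry it too. The gene (ENSMUSG00000034783) lies on chromosome 6 from 83671207 to 83677857 in mm10. It had 11.7, 9.165, 13.5 and 9.74 CPM in MC903 libraries 1 to 4, against 15.8, 13.8, 21.4 and 11.8 CPM in vehicle libraries 1 to 4. The groups overlapped, since MC903 library 3 exceeded vehicle library 4. The log2 fold change was -0.51 ± 0.20 (SE, n = 4 per group; edgeR adjusted p = 0.0590), with a 95% interval of -0.95 to -0.07. The call depended on the setting. Cd207 passed in 4 of 16 alternatives, among them the fits without MC903 replicate 3 (log2 fold change -0.62, edgeR adjusted p = 0.0498), without vehicle replicate 4 (-0.63, 0.0273) and with upper quartile factors (-0.58, 0.0343). Without vehicle replicate 3, its highest library, the log2 fold change was -0.33 (edgeR adjusted p = 0.181).

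Epcam encodes an adhesion protein carried by Langerhans cells and by epithelial cells such as those of the hair follicle. Its level was 66.9, 86.2, 63.7 and 87.4 CPM in the MC903 libraries and 63.7, 64.6, 59.9 and 80.5 CPM in the vehicle libraries. The 2 groups covered nearly the same range, and the gene did not pass (log2 fold change 0.18 ± 0.15, 95% interval -0.14 to 0.50, edgeR adjusted p = 0.352). Epithelial genes beside it went both ways, with 4 of 16 tested higher and 4 lower. Among these, the stem cell marker Lgr6 fell (-1.76 ± 0.12) and the suprabasal keratin Krt1 rose (3.19 ± 0.23). The summed level of that list was 14541 to 16589 CPM in MC903 libraries and 9278 to 11894 CPM in vehicle libraries, and its part in the Epcam value was not tested.

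Itgax encodes the integrin alpha chain CD11c, a surface marker of most dendritic cells. It stood at 14.98, 14.2, 12.9 and 12.4 CPM in MC903 libraries, against 2.30, 5.92, 4.57 and 2.81 CPM in vehicle libraries. Every MC903 library exceeded every vehicle library by at least a factor of 2, and the log2 fold change was 1.82 ± 0.26 (edgeR adjusted p = 0.000243). Of the 50-base windows of Itgax transcripts, 8.02% also occur in other genes, with 384 windows in the related integrin gene Itgad, which had 4 counts over the MC903 libraries and 14 over the vehicle libraries.

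Zbtb46 encodes a transcription factor found in conventional dendritic cells and their committed precursors and, outside the blood lineage, in endothelium. It was at 6.81, 6.17, 8.15 and 9.41 CPM in MC903 libraries and 6.77, 7.84, 5.94 and 8.31 CPM in vehicle libraries. The groups overlapped almost fully. The log2 fold change was 0.08 ± 0.18, with a 95% interval of -0.31 to 0.48 (edgeR adjusted p = 0.737), and its sign changed in 2 of 16 alternative settings.

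Flt3 encodes the receptor tyrosine kinase through which dendritic cell precursors grow. It had 4.32, 5.75, 3.51 and 4.30 CPM in MC903 libraries and 4.36, 5.53, 6.34 and 6.62 CPM in vehicle libraries. MC903 library 2 lay among the vehicle libraries, and the gene did not pass (-0.36 ± 0.21, 95% interval -0.81 to 0.09, edgeR adjusted p = 0.182). Itgax rose, while the lineage genes Zbtb46 and Flt3 did not pass.

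Batf3 and Irf8 encode transcription factors needed for type 1 dendritic cells, and Irf8 also acts in monocytes and B cells. Batf3 had 4.18, 3.50, 3.91 and 2.52 CPM in MC903 libraries, against 1.06, 1.61, 0.686 and 1.37 CPM in vehicle libraries. Irf8 had 31.3, 34.9, 28.1 and 21.5 CPM in MC903 libraries, against 7.25, 7.68, 6.28 and 7.995 CPM in vehicle libraries. Both genes were higher in every MC903 library than in any vehicle library. The log2 fold changes were 1.59 ± 0.29 for Batf3 (edgeR adjusted p = 0.00114) and 1.99 ± 0.17 for Irf8 (7.02e-06), the largest of the 10.

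Clec9a encodes a receptor for exposed actin of dead cells that marks type 1 dendritic cells. It was near the bottom of what could be measured, with 16, 16, 22 and 12 counts in MC903 libraries and 12, 17, 8 and 15 counts in vehicle libraries. These counts overlap, and the log2 fold change of 0.54 ± 0.33 did not pass (95% interval -0.19 to 1.26, edgeR adjusted p = 0.214). This interval overlaps that of Batf3 (0.97 to 2.22) but not that of Irf8 (1.62 to 2.36). Differences between the fold changes of these genes were not tested. Exons of Clec9a share 184 bases with the same-strand gene Clec1b, which itself rose (1.43 ± 0.37, edgeR adjusted p = 0.0103) with 53 counts over the MC903 libraries and 23 over the vehicle libraries. How reads in the shared stretch were counted is not stated, so the level of Clec9a is uncertain. Xcr1, the chemokine receptor that also marks type 1 cells, had 1.82, 2.92, 2.32 and 3.002 CPM in MC903 libraries and 1.83, 2.23, 1.94 and 1.69 CPM in vehicle libraries, and did not pass (0.38 ± 0.23, edgeR adjusted p = 0.200).

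Cd209a encodes a mannose-binding lectin related to human DC-SIGN, and Clec10a a galactose-type lectin. In mouse skin both are used as markers of type 2 and monocyte-derived dendritic cells, and macrophages carry Clec10a too. Cd209a had 113, 71.6, 84.7 and 96.0 CPM in MC903 libraries, against 46.8, 59.8, 68.8 and 57.4 CPM in vehicle libraries. Clec10a had 121, 114, 82.6 and 94.4 CPM in MC903 libraries, against 25.2, 33.3, 30.3 and 27.4 CPM in vehicle libraries. The groups were separate for both, narrowly for Cd209a and widely for Clec10a. Clec10a rose by 1.83 ± 0.15 on the log2 scale (edgeR adjusted p = 6.40e-06) and Cd209a by 0.65 ± 0.16 (0.00832). Mgl2, the close relative beside Clec10a on chromosome 11, rose by 0.79 ± 0.15 (edgeR adjusted p = 0.00185), and the difference between the pair was not tested. Clec10a shares 9.02% of its 50-base transcript windows with other genes, nearly all with Mgl2, so a share of reads may be divided between them.

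**Figure D2:**
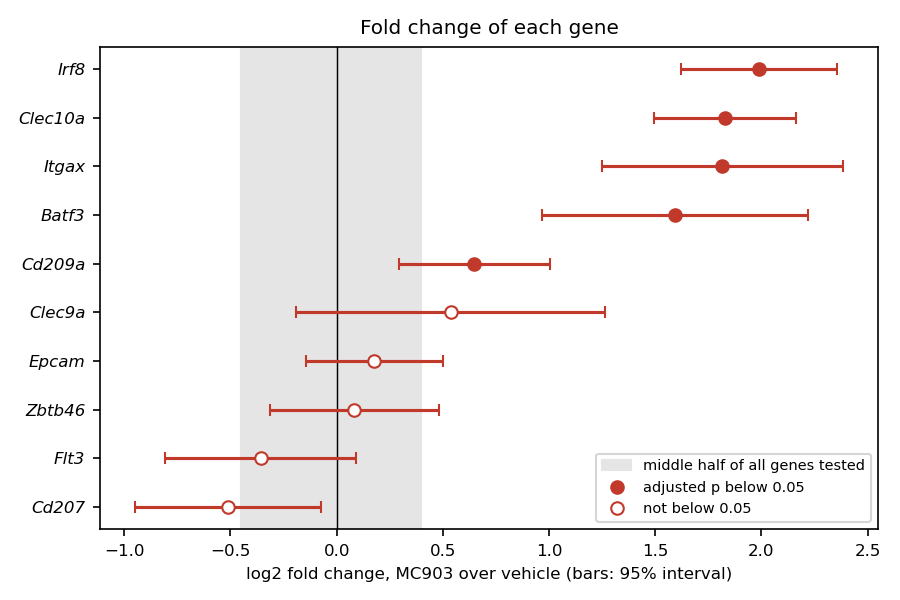
Log2 fold change (horizontal axis, MC903 over vehicle) of the 10 genes with 95% intervals from the edgeR fit, filled where the adjusted p was below 0.05. The grey band holds the middle 50% of all genes tested, from -0.45 to 0.40. The 5 filled points lie to its right, from 0.65 for Cd209a to 1.99 for Irf8, and the point for Cd207 lies just left of it.

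Levels can be compared between genes only per length, as CPM per kilobase of annotated exon. In MC903 skin the order was Cd209a (61.5 ± 11.7, SD, n = 4), Epcam (37.3 ± 6.13), Clec10a (35.6 ± 6.12), Cd207 (7.19 ± 1.28), Batf3 (4.95 ± 1.03), Irf8 (4.10 ± 0.807), Itgax (3.37 ± 0.292), Zbtb46 (0.897 ± 0.170), Flt3 (0.576 ± 0.120) and Clec9a (0.368 ± 0.0677). In vehicle skin it was Cd209a (39.2 ± 6.10), Epcam (32.9 ± 4.47), Cd207 (10.3 ± 2.71), Clec10a (10.03 ± 1.22), Batf3 (1.66 ± 0.564), Irf8 (1.04 ± 0.106), Itgax (0.964 ± 0.410), Zbtb46 (0.848 ± 0.125), Flt3 (0.736 ± 0.131) and Clec9a (0.259 ± 0.110). Clec10a and Cd207 were indistinguishable by library ranges in vehicle skin, whereas in MC903 skin every library value of Clec10a lay above every value of Cd207. Other neighbours whose library ranges overlapped in MC903 skin were Epcam with Clec10a, Batf3 with Irf8, Irf8 with Itgax and Zbtb46 with Flt3. In vehicle skin, ranges overlapped between Cd209a and Epcam and between each neighbouring pair from Batf3 down to Flt3.

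Whether the genes moved by different factors was asked with ratios of 2 genes within each library, from which library size cancels. For 6 such pairs, the mean log2 ratio of counts was tested by permuting all 8 libraries between groups (exact, two-sided), for which 4 against 4 libraries can give no p below 0.0286. Adjustment was over the 6 pairs, several of which share a gene and are not independent. The ratio of Clec10a to Cd207 counts was 10.3, 12.4, 6.13 and 9.66 in MC903 libraries, against 1.59, 2.42, 1.42 and 2.31 in vehicle libraries. The groups were far apart, by 2.31 on the log2 scale (exact p = 0.0286, adjusted p = 0.0429). Clec10a also gained on Cd209a, with ratios of 1.07, 1.60, 0.976 and 0.983 in MC903 libraries and 0.539, 0.558, 0.441 and 0.477 in vehicle libraries (log2 difference 1.18, exact permutation adjusted p = 0.0429).

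Ptprc encodes CD45, the surface phosphatase of all leukocytes, and itself rose (1.15 ± 0.20, edgeR adjusted p = 0.00107). The ratio of Cd207 to Ptprc counts was 0.203, 0.0802, 0.122 and 0.0969 in MC903 libraries, against 0.435, 0.267, 0.489 and 0.290 in vehicle libraries. Every MC903 library was thus below every vehicle library, with a log2 difference of -1.60 (exact permutation adjusted p = 0.0429). Itgax went the other way against Ptprc, with ratios of 0.260, 0.124, 0.117 and 0.123 in MC903 libraries and 0.0638, 0.115, 0.105 and 0.0695 in vehicle libraries (log2 difference 0.78, exact permutation adjusted p = 0.0429). The groups were only just separate, and without MC903 replicate 1 the log2 difference of Itgax to Ptprc was 0.51 (exact permutation adjusted p = 0.143). The ratios of Epcam to Cdh1, an epithelial cadherin that Langerhans cells also carry, and of Cd207 to Epcam overlapped between groups (log2 differences -0.27 and -0.67, exact permutation adjusted p = 0.143 each). With any 1 library left out, the log2 difference ran from 2.17 to 2.51 for Clec10a/Cd207, from 1.01 to 1.25 for Clec10a/Cd209a and from -1.87 to -1.42 for Cd207/Ptprc. Adjusted p by the exact permutation test was then 0.0571 or more for all 6 ratios, where a single test on 7 libraries can give no p below 0.0286.

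**Figure D3:**
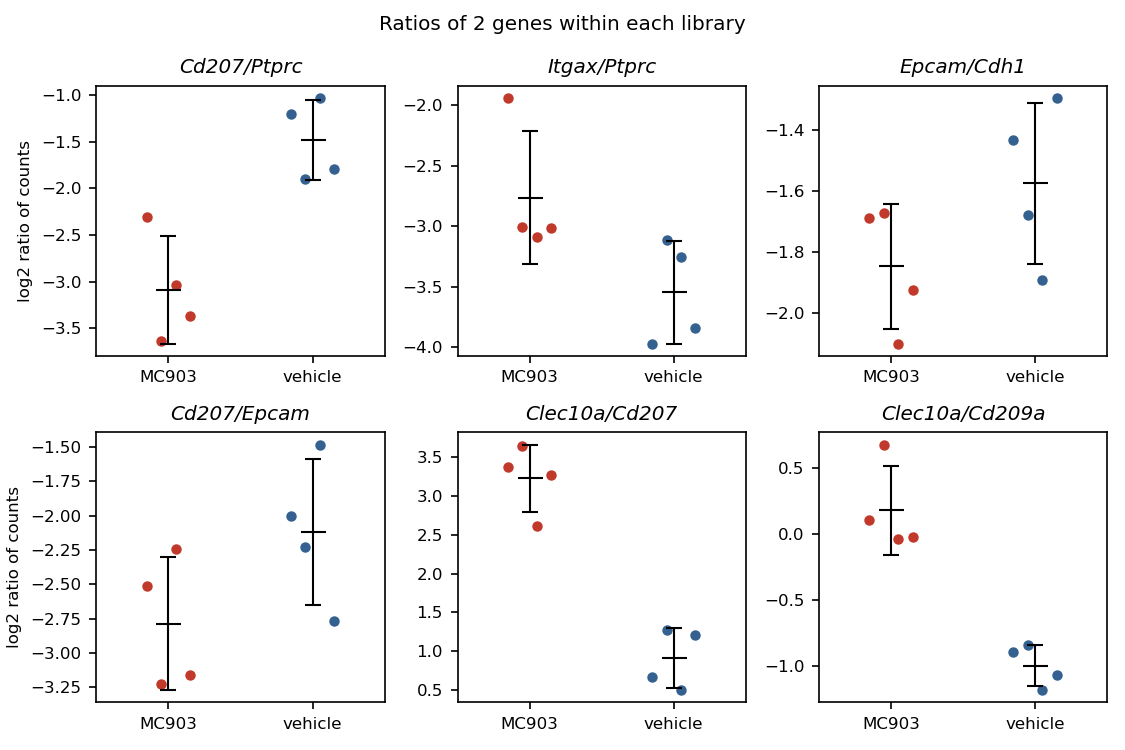
Log2 ratio of the counts of 2 genes (vertical axes, not starting at 0) in each MC903 library (left, red) and vehicle library (right, blue), with mean and SD in black. Clec10a/Cd207 and Clec10a/Cd209a are higher in all MC903 libraries, Cd207/Ptprc is lower in all of them, and Itgax/Ptprc is separated by a narrow gap, with MC903 library 1 far above the other 3.

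Among the 16 other genes of the Langerhans cell programme, 10 rose and 3 fell (median log2 fold change 0.71, against -0.03 over all genes tested). Those that rose include Ptprc, a gene of all leukocytes, the epithelial cadherin Cdh1, and Csf1r, which is also on the macrophage and monocyte list. The part of other cells in these counts was not tested. Il34, the keratinocyte cytokine that Langerhans cells need to persist, fell to 22.5 ± 5.85 CPM in MC903 skin, against 57.5 ± 3.84 CPM in vehicle skin (SD, n = 4; log2 fold change -1.35 ± 0.17, edgeR adjusted p = 0.000103). Its receptor Csf1r rose (0.90 ± 0.12), as did Runx3 (1.59 ± 0.21), a transcription factor that Langerhans cells need. Axl and Mfge8, genes of dead-cell uptake, fell (-0.69 ± 0.12 and -0.60 ± 0.14). Cd24a, a surface glycoprotein of Langerhans cells and keratinocytes, rose (1.65 ± 0.14). Ccr6, a chemokine receptor of Langerhans cells, had 3.89 ± 0.666 CPM in MC903 skin and 4.88 ± 1.75 CPM in vehicle skin and did not pass, while its ligand Ccl20 rose (2.35 ± 0.35). Without vehicle replicate 2, 8 of these genes were higher and 3 lower.

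The type 1 dendritic cell programme held 13 other genes, of which 6 rose and 2 fell (median 0.38; 4 higher and 3 lower without vehicle replicate 2). Among all genes tested, with all 8 libraries, 21.3% were higher and 20.2% lower. The 2 with the smallest p were Tap1, a peptide transporter (1.18 ± 0.14), and Naaa, a lipid hydrolase (0.79 ± 0.11). Wdfy4, needed for cross-presentation, rose (1.06 ± 0.17), and Itgae, the CD103 integrin chain, rose little (0.39 ± 0.14, edgeR adjusted p = 0.0399). Cadm1 and Tlr3 did not pass (-0.39 ± 0.15 and -0.06 ± 0.25), and Bcl6 and Snx22 fell (-0.81 ± 0.15 and -0.72 ± 0.20).

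For the type 2 programme, 7 of 12 other genes tested rose and 0 fell (median 0.98), with the same counts without vehicle replicate 2. The lectin Cd209d (1.83 ± 0.16), the integrin chain Itgam (1.80 ± 0.17) and the inhibitory receptor Sirpa (1.45 ± 0.15) rose. Itgam is also on the macrophage and monocyte list, and the part of those cells in these rises was not tested. The transcription factors Irf4 and Klf4, which direct type 2 cells, did not pass. Irf4 had 6.66 ± 1.36 CPM in MC903 skin and 6.15 ± 1.34 CPM in vehicle skin (0.12 ± 0.21). Klf4, which keratinocytes also make, had 387 ± 39.1 CPM in MC903 skin and 384 ± 109 CPM in vehicle skin (0.01 ± 0.20).

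Of 13 other growth and lineage factors of dendritic cells, 8 rose and 1, Il34, fell (median 0.79; 7 and 1 without vehicle replicate 2). Csf2rb, the beta chain of the receptor for Csf2, and its close paralog Csf2rb2, a beta chain of the Il3 receptor, had the smallest p (2.19 ± 0.17 and 1.83 ± 0.15), and the transcription factor Spi1 (PU.1) rose by 1.60 ± 0.25. Csf2 itself, GM-CSF, rose at a low level, to 0.893 ± 0.170 CPM in MC903 skin, against 0.201 ± 0.0582 CPM in vehicle skin. The part of cells other than dendritic cells in the changes of this list was not tested. Flt3l, the ligand of Flt3, had no match among the identifiers and was not analysed here.

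Of 17 tested genes of dendritic cell maturation and migration, 13 rose and 1 fell (median 1.07; 12 and 1 without vehicle replicate 2). Ccr7, the receptor that guides mature dendritic cells to lymph nodes, rose to 6.48 ± 1.25 CPM in MC903 skin, against 1.42 ± 0.672 CPM in vehicle skin (log2 fold change 2.21 ± 0.29, edgeR adjusted p = 0.000154). Pdcd1lg2, a ligand of the T cell checkpoint receptor PD-1, rose by 3.78 ± 0.29, and Fscn1, the actin bundler of mature dendritic cells, by 1.88 ± 0.14. Cd40, Cd80 and Cd86, which stimulate T cells, rose by 2.01 ± 0.18, 2.23 ± 0.33 and 1.07 ± 0.17. Relb, Ebi3 and Icosl did not pass (0.46 ± 0.17, 0.46 ± 0.33 and 0.39 ± 0.18), and Cacnb3 fell (-0.91 ± 0.21). The part of cells other than dendritic cells in these changes was not tested. In the list for the keratinocyte cytokine TSLP and the response of dendritic cells to it, 6 of 8 tested genes rose and 1 fell (5 and 1 without vehicle replicate 2), and Tslp itself rose by 4.83 ± 0.33. The receptor chains Crlf2 and Il7r rose by 1.04 ± 0.23 and 1.14 ± 0.20, and the chemokine Ccl17 by 2.75 ± 0.24. On the same list, Stat5b fell (-0.34 ± 0.11) and Stat5a did not pass (0.05 ± 0.12). Of the MHC class II genes, 7 of 9 rose, among them Ciita, their master regulator (1.15 ± 0.16), and H2-Ab1 (1.17 ± 0.17). Cd74, with the highest CPM of this list, and H2-Ob did not pass (0.37 ± 0.22 and 0.36 ± 0.27).

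**Figure D4:**
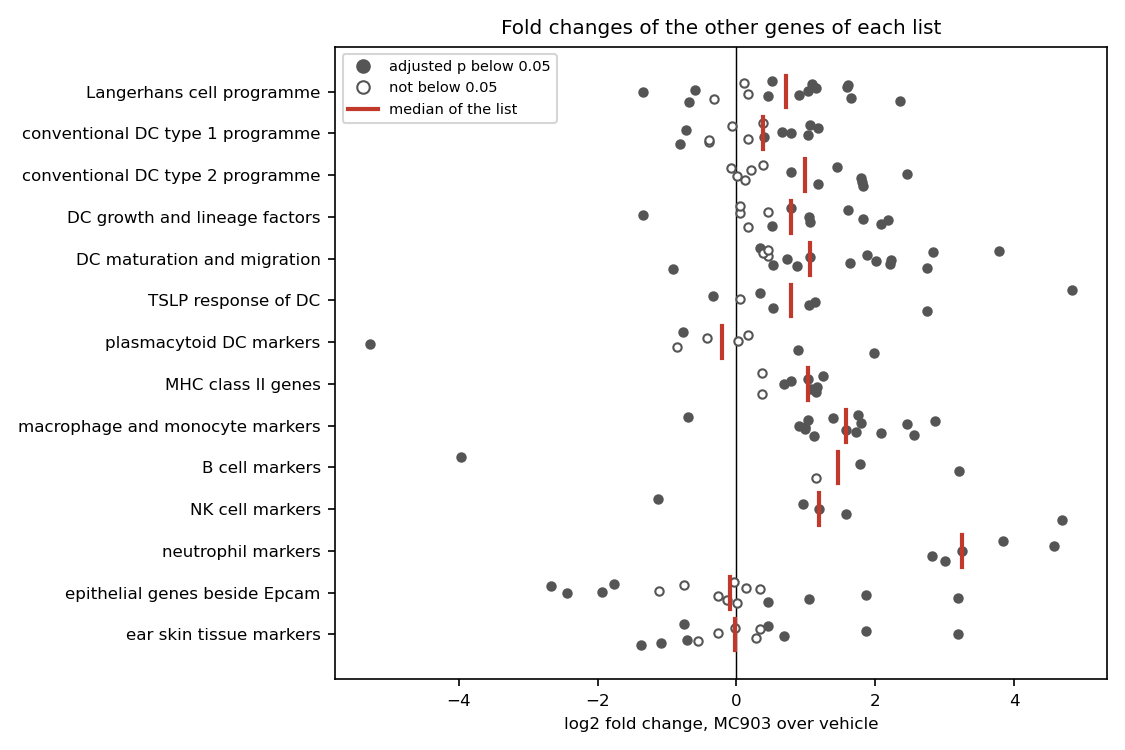
Log2 fold change (horizontal axis, MC903 over vehicle) of each tested gene of the lists, leaving out the 10 genes themselves. Each dot is a gene, filled where the edgeR adjusted p was below 0.05, and red bars are list medians. Medians run from -0.20 for plasmacytoid dendritic cell markers to 3.25 for neutrophil markers.

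Markers of other cells that can carry the 10 genes moved too. Of 15 macrophage and monocyte markers 14 rose and 1, Mertk, fell (median 1.58; 13 and 1 without vehicle replicate 2), with C1qa and Mrc1 rising by 2.57 ± 0.17 and 1.74 ± 0.16. Their summed level was 2361 to 3201 CPM in MC903 libraries and 1015 to 1175 CPM in vehicle libraries, with none at 0. All 5 neutrophil markers tested rose, such as Cxcr2 (2.82 ± 0.15) and Mmp8 (3.25 ± 0.26). The sum of all 9 on the list was 403 to 1413 CPM in MC903 libraries and 33.4 to 112.5 CPM in vehicle libraries. Most of it came from S100a8 and S100a9, which keratinocytes also make, at means of 552 and 421 CPM in MC903 skin, against 23.1 and 29.5 CPM in vehicle skin. The other 4 were too low to test, and the defining neutrophil gene Ly6g had 6 counts over the MC903 libraries and 0 over the vehicle libraries. Of the natural killer cell markers, 4 of 5 tested rose, Gzma (4.70 ± 0.65) and Klrk1 (0.96 ± 0.16) among them, and Prf1 fell. The fold change of Gzma rests on a vehicle mean of 0.178 CPM. This is near the 0.171 to 0.2305 CPM that 3 counts give in vehicle libraries. Without vehicle replicate 2, 5 of the natural killer cell markers were higher and 0 lower. Their sum was 20.2 to 31.8 CPM in MC903 libraries and 8.95 to 12.1 CPM in vehicle libraries. The part of these cells in the rise of Itgax, Irf8, Clec10a and Cd209a was not tested.

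B cell markers were low, and several were at or near the floor, which 3 counts set at 0.171 to 0.250 TMM-adjusted CPM. The defining B cell gene Pax5 had 0 counts in all 8 libraries, and Ms4a1 had 5 counts over the MC903 libraries and 1 over the vehicle libraries. The sum of all 8 B cell markers was 4.79 to 11.9 CPM in MC903 libraries and 3.84 to 5.89 CPM in vehicle libraries. Of the 4 tested, Cd79b and Cd22 rose and Fcer2a fell (-3.97 ± 0.47). Cd22 was near the floor in vehicle skin (mean 0.183 CPM), and Fcer2a was below it in MC903 skin (mean 0.141 CPM). Of 8 plasmacytoid dendritic cell markers tested, 2 were called higher and 2 lower. Bst2 (1.99 ± 0.25) and Ccr9 (0.88 ± 0.15) rose, while the surface receptor Siglech had 6.40 ± 1.91 CPM in MC903 skin and 5.70 ± 0.463 CPM in vehicle skin and did not pass. Tcf4, the lineage transcription factor of plasmacytoid cells, fell to 219 ± 32.2 CPM in MC903 skin, against 373 ± 22.6 CPM in vehicle skin (-0.77 ± 0.15). Ly6d, on the same list, had means of 2407 CPM in MC903 skin and 2375 CPM in vehicle skin. The part of other cells in the levels of Tcf4 and Ly6d was not tested. Klk1 was called lower only narrowly (edgeR adjusted p = 0.0469) and with overlapping groups. Its SD in vehicle skin exceeded its mean (51.6 ± 103 CPM), so the call rests on a very uneven vehicle group. Without vehicle replicate 2 the list had 3 higher and 1 lower.

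The genes whose pattern over the 8 libraries was nearest to 3 of the members were sought among 12898 others, by the root mean square difference of log2 CPM centred on each gene's mean. For Cd207 they included Cryz (0.17) and Tcrg-C1 (0.17), a constant region gene of the gamma T cell receptor. For Clec10a they were Ctss, the cathepsin of antigen processing (0.11), Ctla2a (0.11) and Tmem173, which encodes STING (0.12). For Itgax they were Pla2g7 (0.20), Irf1 (0.21) and Samsn1 (0.21). The measure weighs the difference between groups most, and is a description over 8 libraries.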

How the data were processed

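Ribosomal RNA-depleted total RNA of whole ear was sequenced as single reads of 50 bases, per the labels' protocols. Per the submitters' processing notes, STAR 2.0.4b, Subread and featureCounts 1.4.5 were used on build mm10. Annotation release, strand setting and treatment of reads with several alignments: not given in the sources used here. No protocol step marks strand. The authors deposited whole-number counts per Ensembl gene, with CPM and RPKM beside them. The deposited CPM and RPKM values equalled the scaled counts to within 2.33e-10 and were used only for that check. Per-kilobase values in the report were computed here from TMM-adjusted CPM and the deposited gene length. Symbols were matched for 40254 of 41388 identifiers.

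Counts were filtered (filterByExpr), scaled (TMM) and tested in edgeR 4.0.16 under R 4.3.3, with group as the only term, and p-values were adjusted over all genes tested. Standard errors are the log2 fold change divided by the root of F, and intervals use the t quantile of the fit. Alternatives used RLE or upper quartile factors, library sizes alone, no filter or 1 CPM in at least 4 libraries, DESeq2 1.42.0, limma-voom (limma 3.58.1), the replicate number as a block, and each library left out. Ratios used an offset of 0.5 counts. Libraries within a group differed by more than sampling noise (chi-square per degree of freedom at least 10.1). Each group is 4 mice, per the series' design text, and litters or batches are not stated. Floors cover counting error only, since PCR copies could not be told from separate molecules.

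The members and lists were chosen with earlier results of these data known. Named genes are all members, the 2 genes with the smallest p of each list, the genes of the ratios and the 3 nearest patterns of 3 members, of which 1 is not reported here. Other genes named, and the promoter motifs, were chosen after the values were seen.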

Additional observations from a re-analysis of the deposited data

Results flagged for a closer look

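The log2 ratio of Itgax to Ptprc counts in MC903 replicate 1 was -1.94, far above the other MC903 libraries, which lay between -3.09 and -3.01. The gap to the nearest of them exceeded Dixon's 95% critical value for 4 samples, as a share of the group's range. MC903 replicate 1 had 57.7 CPM of Ptprc, against 101 to 115 CPM in the other MC903 libraries, and 14.98 CPM of Itgax, against 12.4 to 14.2 CPM there. In all, 36 groups of 4 values were looked at and 1 met this limit, where chance gives about 1 in 20.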

How the results depend on the processing

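The 5 genes that rose (Irf8, Clec10a, Itgax, Batf3 and Cd209a) passed in all 16 alternative fits, with the highest adjusted p for Cd209a (0.0404). Epcam, Flt3, Zbtb46 and Clec9a passed in none of the 16. The count of the 10 genes called lower, 0, was 1 with upper quartile factors and 1 with the replicate block, and ran from 0 to 1 with each library left out. The gene in each case was Cd207, whose adjusted p ran from 0.0273 to 0.181. Same-numbered libraries did not deviate together (correlations of their deviations 0.06, -0.14, -0.12 and -0.20). Libraries of unlike number gave values of similar size, from -0.14 to 0.29. These correlations therefore cannot decide whether the numbers pair samples. The fit with the replicate block called 2973 genes higher and 2732 lower, against 3423 and 3259 without it. With library sizes alone, 2370 were higher and 3019 lower, which makes the share of higher calls smaller, and with upper quartile factors 2977 and 3923. These 2 scalings moved the median of all genes by -0.08 and -0.07. With each library left out, the log2 differences ran from -1.87 to -1.42 for Cd207/Ptprc, 0.51 to 0.93 for Itgax/Ptprc, 2.17 to 2.51 for Clec10a/Cd207 and 1.01 to 1.25 for Clec10a/Cd209a, and their adjusted p by the exact permutation test ran from 0.0571 to 0.143, with fewer samples. An offset of 1 changed no call. Sign flips over pairs cannot give an exact p below 0.125. Depth limits Clec9a and the B cell markers, which had few counts.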

Other observations

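The relatives of Cd209a in its cluster on chromosome 8, looked at after their values were seen, differed in their log2 fold changes. Cd209e had 99.2, 80.9, 97.3 and 101.9 CPM in MC903 libraries, against 13.5, 12.2, 19.8 and 24.05 CPM in vehicle libraries, a log2 fold change of 2.44 ± 0.21 (edgeR adjusted p = 7.14e-06). Cd209d, which had 176, 126, 131 and 109.9 CPM in MC903 libraries, against 43.9, 37.04, 34.1 and 38.04 CPM in vehicle libraries, had the highest CPM per kilobase of them in every MC903 library. Cd209c rose by 1.22 ± 0.15 and Cd209b by 0.67 ± 0.23, close to the 0.65 ± 0.16 of Cd209a. Cd209f rose (0.97 ± 0.33, edgeR adjusted p = 0.0339) with overlapping groups, and Cd209g did not pass (0.76 ± 0.33, edgeR adjusted p = 0.0831). No 50-base window of Cd209a transcripts occurs in another gene. Differences between the relatives' fold changes were not tested.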
